A study of Mus musculus with 8 samples.

Results

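The genes described here are the Sox, Pax and T-box transcription factors, chosen by name: every gene of the deposited count table called Sox, Pax or Tbx followed by a number, plus Eomes. There were 42 such genes of 24062 in the table, made up of 19 Sox, 9 Pax and 14 T-box genes. The RNA, selected for poly(A), came from immortalized embryonic fibroblasts of the mouse (6KO iMEFs), a previously made line labelled as knocked out for Ring1b and for the H3K9 methyltransferases Ehmt1, Ehmt2, Suv39h1, Suv39h2 and Setdb1. All groups share these deletions, the control included, so no group here has intact H3K9 methyltransferases. The control group received a control shRNA and the knockdown group an shRNA against Ring1a (gene symbol Ring1), and the inhibitor group combined the control shRNA with DS3201. The combined group had the Ring1a shRNA and DS3201. The protocol describes a lentiviral shRNA vector, blasticidin at 7 µg/ml for 3 days, and DS3201, an inhibitor of the H3K27 methyltransferases EZH1 and EZH2, at 1 µM for 7 days. Each of the 4 groups had 2 libraries, called set 20 and set 28 after the prefix of their columns. The series asks how H3K27me3 and PRC1 act jointly to silence genes that have lost H3K9 methylation, per its title, and the 4 groups allow each arm to be compared alone and together. The labels do not say whether the libraries came from separate cultures, so the p-values reflect the scatter among these particular libraries, part or all of which may be technical.

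Total counts were 12738585 to 23688253 per library, and 3 counts corresponded to 0.122 to 0.265 CPM, the count scaled to library size. Ring1, the target of the shRNA, stood at 7.51 to 20.4 CPM in the 4 libraries with the control shRNA and at 1.41 to 4.51 CPM in the 4 with the Ring1a shRNA. Checked against the fibroblast label, RNA of collagens, vimentin and fibronectin was abundant in every library. Pdgfrb, a receptor of mesenchymal cells, was at 49.5 to 220 CPM. Of the 10 fibroblast markers, Thy1 (at most 0.428 CPM) and Lum (at most 0.623 CPM) stayed below 1 CPM in every library, while Dcn (at most 9.67 CPM) and Pdgfra (at most 28.4 CPM) were above it in all libraries with DS3201. The inhibitor library of set 28 had the lowest total and, per the normalization, the lowest scaling factor (0.889, against 0.971 to 1.05 elsewhere).

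Sox proteins bind DNA through an HMG box related to that of Sry, Pax proteins through a paired domain, and T-box proteins through the domain first described in Brachyury. The families assign cell identity in the embryo: Sox2 in neural progenitors, Sox9 in cartilage, Pax2 in kidney, Pax6 in the eye, Eomes in mesendoderm. In cells that do not use them, such genes are classical targets of Polycomb. PRC2, with EZH1 or EZH2 as its catalytic subunit, places H3K27me3, and PRC1, with RING1A or RING1B, places H2AK119ub, largely at promoters rich in CpG dinucleotides.

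The upstream sequences of members on which the results turn are shown for their CpG content. Sox12, Sox2, Pax2, Pax6 and Eomes were higher with DS3201, and Tbx20, abundant in all libraries, is given beside them. Each is taken from the 250 bases before a RefSeq start (GRCm38.p6), written 5′ to 3′ on the gene's strand with CG in capitals. The Sox12 sequence stops after 233 bases, before its annotated exon. Sox12 lies at chr2:152398064-152398296 (minus strand), Sox2 at chr3:34649745-34649994 (plus), Pax2 at chr19:44755502-44755751 (plus), Pax6 at chr2:105668646-105668895 (plus), Eomes at chr9:118477939-118478188 (plus) and Tbx20 at chr9:24774304-24774553 (minus). The Pax2 window is 1 of 3 for that gene and the Pax6 window 1 of 2. The other Pax2 windows held 5 and 25 CG, and the other Pax6 window 15. For the Sox2 and Pax2 windows shown, the bases that follow were not found in an annotated transcript of the gene.
Sox12: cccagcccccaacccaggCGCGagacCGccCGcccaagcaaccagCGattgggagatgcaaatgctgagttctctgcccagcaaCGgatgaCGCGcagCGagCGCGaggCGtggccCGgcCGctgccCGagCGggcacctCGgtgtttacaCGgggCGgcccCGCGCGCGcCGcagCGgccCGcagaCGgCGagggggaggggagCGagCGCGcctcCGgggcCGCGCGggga
Sox2: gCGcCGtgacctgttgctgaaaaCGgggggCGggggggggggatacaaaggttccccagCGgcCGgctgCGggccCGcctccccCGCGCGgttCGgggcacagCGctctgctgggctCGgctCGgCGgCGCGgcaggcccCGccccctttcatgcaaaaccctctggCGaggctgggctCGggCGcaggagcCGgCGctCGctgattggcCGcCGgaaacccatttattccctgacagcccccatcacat
Pax2: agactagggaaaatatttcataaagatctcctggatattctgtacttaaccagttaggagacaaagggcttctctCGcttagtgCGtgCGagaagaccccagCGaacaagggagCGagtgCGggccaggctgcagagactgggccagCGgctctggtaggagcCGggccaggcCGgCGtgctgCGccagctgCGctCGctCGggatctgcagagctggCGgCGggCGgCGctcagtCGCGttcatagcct
Pax6: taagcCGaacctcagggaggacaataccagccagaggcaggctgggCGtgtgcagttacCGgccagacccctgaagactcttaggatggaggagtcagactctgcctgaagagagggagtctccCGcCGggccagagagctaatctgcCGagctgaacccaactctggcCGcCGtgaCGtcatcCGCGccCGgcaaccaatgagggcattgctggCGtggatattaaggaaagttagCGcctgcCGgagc
Eomes: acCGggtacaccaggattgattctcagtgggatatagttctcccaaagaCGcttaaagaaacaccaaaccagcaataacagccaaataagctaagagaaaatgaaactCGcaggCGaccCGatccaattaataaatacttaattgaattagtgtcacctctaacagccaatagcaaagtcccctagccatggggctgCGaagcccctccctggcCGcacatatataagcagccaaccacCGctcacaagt
Tbx20: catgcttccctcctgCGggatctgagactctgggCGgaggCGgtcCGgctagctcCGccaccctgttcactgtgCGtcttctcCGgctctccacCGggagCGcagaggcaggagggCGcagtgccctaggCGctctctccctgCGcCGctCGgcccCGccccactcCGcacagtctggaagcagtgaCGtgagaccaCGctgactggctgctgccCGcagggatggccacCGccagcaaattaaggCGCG
Sox12 held 35 CG, a number reached by 2.97% of the 32851 upstream windows of the same length in the table. Sox2 held 27 (8.56% of windows had as many), Tbx20 22 (14.8%), Pax2 20 (17.9%), Pax6 15 (27.3%) and Eomes 8 (43.0%). For the windows shown, Tbx20, which passed no test, lay between Sox2 and Pax2. Sox21, whose window meets an exon of Gm4675 and is not shown, held 17 (23.5%). Of the 42 members, 30 had a RefSeq window, and 18 of these (60%) had a CpG-rich window, with over 50% GC and an observed-to-expected CpG ratio above 0.6 over 300 bases. The same held for 48.8% of all counted genes with a window.

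In the control the members ranged from silent to abundant, and 10 of those later tested were at 1 to 10 CPM. A mean of 10 CPM or more in the control was seen for 9 members: Tbx20, Sox11, Pax3, Tbx15, Tbx18, Sox4, Tbx3, Pax8 and Sox8. Scaled by exon length and averaged over the 8 libraries, the level of Tbx20 (12.4 CPM per kb), Sox11 (11.5), Tbx15 (9.22), Pax3 (6.16), Sox4 (6.10) and Tbx18 (4.44) were the highest. These include Tbx20, known from the heart, Tbx15 and Tbx18, known from limb, skin and body-wall mesenchyme, and Pax3, known from neural crest and muscle precursors. At the other end, 19 members stayed below the level needed for testing, with no more than 0.767 CPM in any library. That left 23 tested members, 10 Sox, 5 Pax and 8 T-box, and the counts of called members below are of these 23 and not of all 42.

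**Figure D1:**
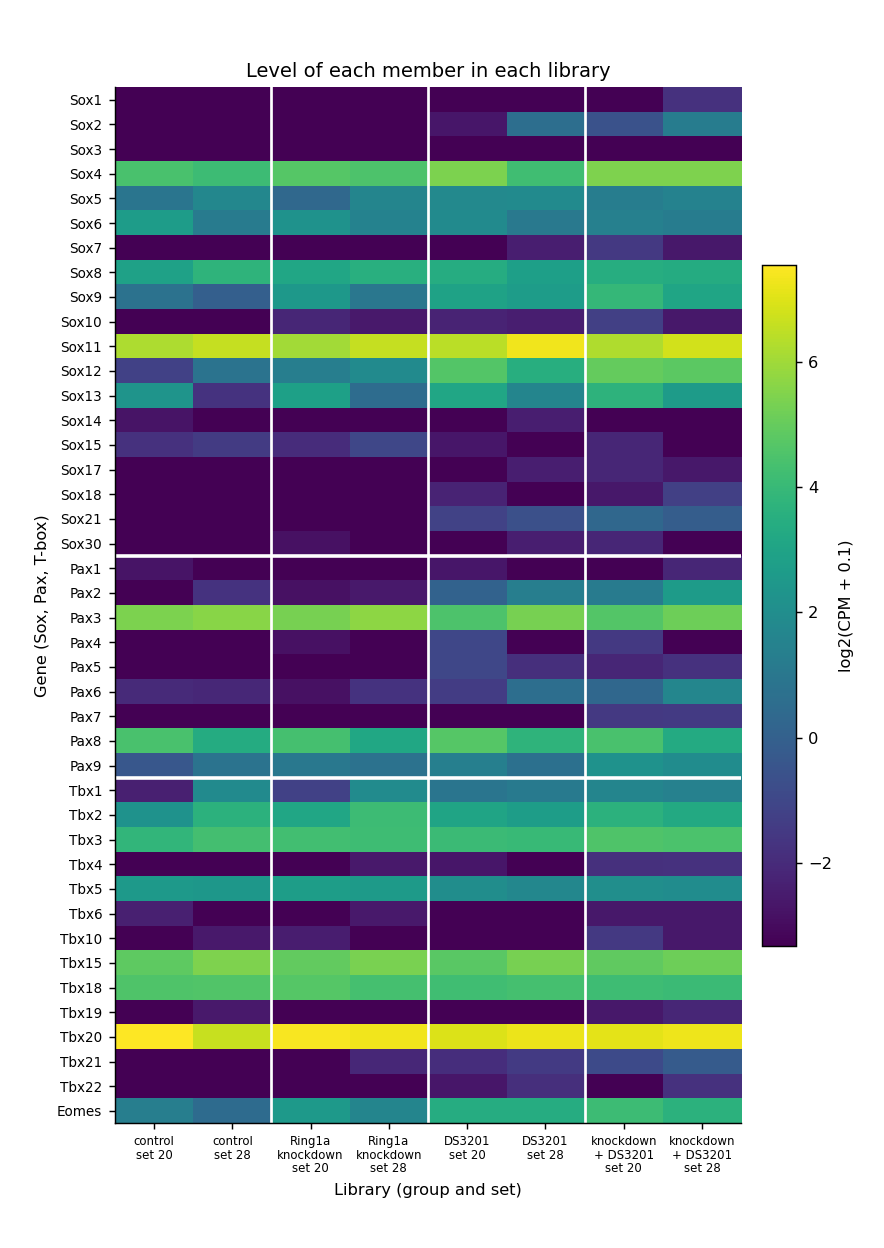
Level of all 42 members (rows: Sox, Pax, T-box with Eomes last) in the 8 libraries (columns, by group and set) as log2(CPM + 0.1) on a color scale. Tbx20 and Sox11 are the brightest rows in every group, and the rows of Sox12, Sox9, Sox2, Sox21, Pax2, Pax6 and Eomes are brighter in the 4 columns with DS3201.

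A small number of Sox, Pax and T-box genes were called higher with DS3201, all low or silent in the control. Among those named here, Sox2, Sox21, Pax2 and Pax6 were tested only because of their counts with DS3201. Nothing is read from the direction of these genes. Averaged over both shRNAs, Sox12, Sox21, Pax2 and Eomes rose and 0 members fell (edgeR quasi-likelihood test, Benjamini-Hochberg adjusted p under 0.05). Those 4 of 23 tested members stand beside 5.24% of all 15287 entries called higher and 0.216% called lower. At an unadjusted p under 0.05, 9 members were higher and 2 lower, beside 2028 and 678 of the 15287 entries. DESeq2 called 7 members higher (8.79% of entries) and 0 lower (1.72%). With the set as a replicate block, 7 members rose (adding Sox2, Sox9 and Pax6), beside 12.9% of all entries, and 1 fell (Pax3), beside 4.16%. The median log2 fold change was 0.35 over the tested members and 0.04 over all entries. By family the median was 0.95 for Sox, 1.00 for Pax and -0.13 for T-box genes. The Sox, Pax and all-member medians include Sox2, Sox21, Pax2 and Pax6, whose own median was 5.80, so the families are not compared. By level in the control, the median was 0.69 for members at 1 to 10 CPM and -0.08 for those at 10 CPM or more. Over all entries at those levels it was 0.12 and -0.05. In these bulk libraries, more cells with a gene on and more RNA per cell cannot be told apart.

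Of the tested members, 4 were under 1 CPM in control cells (Sox2, Sox21, Pax2, Pax6). With at most 3 counts in any untreated library, these entered the test only through the libraries with DS3201, so their direction was fixed by the count filter and nothing is read from it. The test was passed by 2 of them without the block and 4 with it, where 28.2% and 53.5% of all entries at that level passed. Of the 10 members at 1 to 10 CPM, 2 passed without the block (Sox12 and Eomes) and 3 with it (also Sox9), against 2.61% and 10.8% of entries. Of the 9 members at 10 CPM or more, 0 rose, against 0.399% of entries without and 3.48% with the block, and 1 fell with the block, against 5.88%. In 7 members (Sox2, Sox9, Sox12, Sox21, Pax2, Pax6, Eomes) all 4 libraries with DS3201 lay above all 4 without it, as for 12.3% of all entries. Tbx5 was the 1 member with all 4 below, as for 5.28%. The calls without the block depended on single libraries: leaving out either combined library gave 0 higher members, leaving out the knockdown library of set 20 gave 1, and leaving out the control library of either set, the knockdown library of set 28 or the inhibitor library of set 28 gave 2. Leaving out the inhibitor library of set 20 gave 4.

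**Figure D2:**
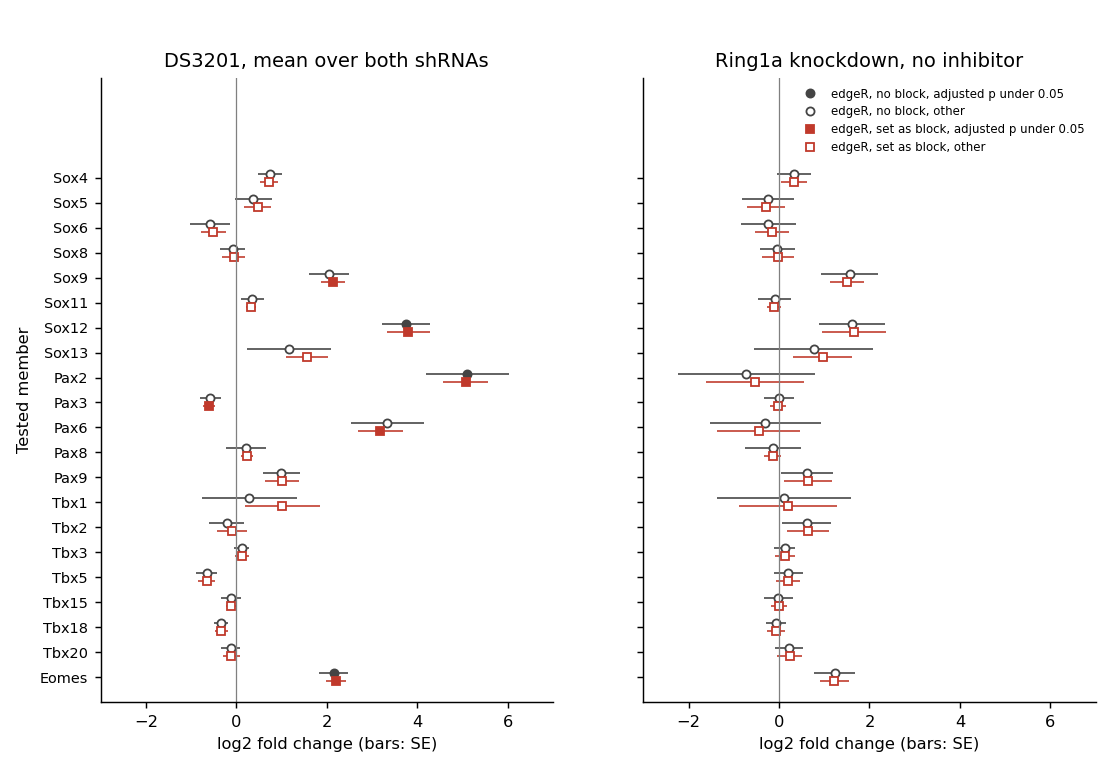
Fitted log2 fold change with its standard error for each tested member, for DS3201 averaged over both shRNAs (left) and for the Ring1a knockdown without inhibitor (right), where circles are the fit without and squares with the set as block, filled where the adjusted p was under 0.05. On the left Sox12, Pax2, Pax6, Sox9 and Eomes lie at 2.06 or more, on the right no symbol is filled, and Sox2 and Sox21, with 0 counts without DS3201, are not drawn.

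Among the SoxC genes, which act in neuronal and mesenchymal progenitors, Sox12 changed most. Sox12 (chr2, 152393611 to 152398063, a gene of 1 exon) stood at 0.333 CPM in set 20 and 1.68 CPM in set 28 of the control, and at 2.44 and 3.57 CPM in knockdown cells. It reached 24.97 and 11.3 CPM with DS3201, and 31.1 and 28.2 CPM under the combined treatment. Every library with DS3201 lay above every library without it, and the order of the sets changed between groups. Its log2 fold change with DS3201 was 3.76 ± 0.53 (SE), a 13.5-fold increase, with 4.71 in set 20 and 2.81 in set 28 (edgeR adjusted p = 0.0153 without and 0.00263 with the block). It passed in 5 of the 8 fits that left out a library (adjusted p from 0.0168 to 0.0716), and its log2 fold change there ran from 3.35 without the control library of set 20 to 4.52 without that of set 28.

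Sox4 and Sox11, the other SoxC genes, were abundant throughout. Sox4 (chr13, 28948919 to 28953713) was 21.1 and 17.5 CPM in control cells, 25.7 and 23.0 CPM in knockdown cells, 41.9 and 18.7 CPM with DS3201, and 43.1 and 43.0 CPM under the combined treatment. The inhibitor library of set 28 lay within the range of the untreated libraries, and the other 3 libraries with DS3201 lay above it. Its log2 fold change with DS3201 was 0.74 ± 0.27 (edgeR adjusted p = 0.21, and 0.0535 with the block). Without the inhibitor library of set 28, the log2 fold change of Sox4 was 0.90 with the block. That fit was chosen after seeing the data and left 1 library in the inhibitor group. It leaves out the library within the untreated range, so no rise of Sox4 is read from it. A long noncoding RNA, Gm26735, overlaps 2616 bases of Sox4 exon on the opposite strand, and the strand rule of the counting is not given in the sources used here. Sox11 ranged from 66.4 to 157 CPM and was highest in the inhibitor library of set 28. Its log2 fold change was 0.35 ± 0.26 (edgeR adjusted p = 0.56), and the groups overlapped.

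Sox9, a SoxE gene and the master regulator of cartilage, was low in the control and higher in each other group. Sox9 (chr11, 112782224 to 112787760) was 1.62 and 0.872 CPM in control cells, 5.52 and 1.88 CPM in knockdown cells, 7.53 and 6.36 CPM with DS3201, and 15.1 and 8.24 CPM under the combined treatment. Set 20 was the higher set in every group, and all libraries with DS3201 exceeded all libraries without. With DS3201 its log2 fold change was 2.06 ± 0.45, which did not pass without the block (edgeR adjusted p = 0.0511) and passed with it (2.13 ± 0.26, adjusted p = 0.00259). The SoxE gene Sox8 ranged from 6.89 to 13.3 CPM with overlapping groups (log2 fold change -0.08 ± 0.27, edgeR adjusted p = 0.919). Sox10, the neural crest and glial SoxE gene, was not tested: it had 4 counts over the 4 libraries without DS3201 and 9 over the 4 with it.

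The SoxB genes, which hold neural progenitors (Sox1, Sox2, Sox3) or promote their differentiation (Sox14, Sox21), were silent without the inhibitor. Sox2 (chr3, 34650405 to 34652461), also a pluripotency factor, had 0 counts in all 4 libraries without DS3201. It reached 0.0566 CPM in set 20 and 1.41 CPM in set 28 with DS3201, and 0.565 and 2.24 CPM under the combined treatment, so set 28 was the higher set in both groups. Summed over libraries these were 61 counts against 0, at least 25.3-fold higher against a floor of 3 counts over the untreated libraries (edgeR adjusted p = 0.126, and 0.0152 with the block). Without the inhibitor library of set 28, Sox2 did not pass in that average (edgeR adjusted p = 0.0893 with the block) and passed in the knockdown cells (0.043). Sox2 lies inside the transcript Sox2ot on the same strand, with no shared exon in the annotation.

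Sox21 (chr14, 118233232 to 118237030) also had 0 counts in the 4 untreated libraries. It was 0.340 and 0.530 CPM with DS3201 and 1.13 and 0.830 CPM under the combined treatment, at least 17.8-fold higher. Its direction, like that of Sox2, was fixed by the count filter. Sox21 passed in the fit without the block (edgeR adjusted p = 0.0309) and with it (0.0126), but in 0 of the 8 fits that left out a library. The lincRNA Gm4675 overlaps 713 bases of its exon on the opposite strand. Of the other SoxB genes, Sox3 had 0 counts in all 8 libraries, Sox1 had 3 counts, all in the combined library of set 28, and Sox14 had 1 count without and 1 with DS3201.

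SoxD and SoxF genes gave no call. The SoxD genes Sox5 and Sox6, coactivators of Sox9 in cartilage, ranged from 1.18 to 3.53 CPM and from 2.03 to 6.27 CPM (log2 fold changes 0.38 ± 0.41 and -0.58 ± 0.43 with DS3201, edgeR adjusted p = 0.705 and 0.567). Sox13 differed more between sets than between groups: 4.80 and 0.201 CPM in control cells, 8.49 and 3.00 CPM with DS3201 (1.16 ± 0.93, edgeR adjusted p = 0.597, and 0.0615 with the block). The SoxF genes of endothelium, Sox7, Sox17 and Sox18, had 0 counts in the untreated libraries and 6, 4 and 8 counts with DS3201, too few to test.

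**Figure D3:**
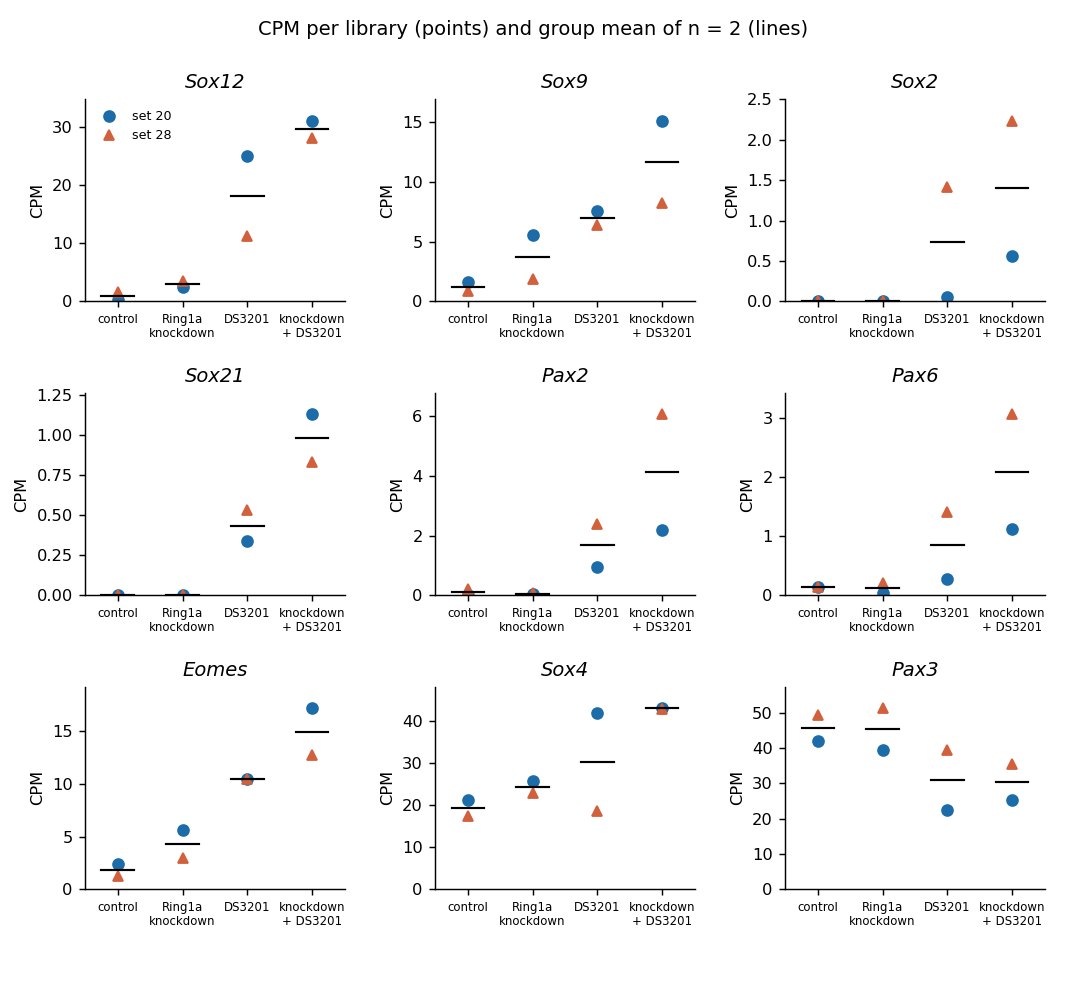
CPM per library (circles set 20, triangles set 28) and group means (lines, n = 2) of 9 members in the 4 groups, each panel with its own axis from 0. Sox12, Sox9, Sox2, Sox21, Pax2, Pax6 and Eomes have all 4 libraries with DS3201 above all 4 without, Sox4 has its inhibitor library of set 28 at 18.7 CPM, and Pax3 is lower with DS3201 within each set.

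Among the Pax genes, Pax2 was near 0 without DS3201. It entered the test only through the libraries with DS3201, so nothing is read from its direction. Pax2, a regulator of kidney and midbrain development (chr19, 44756045 to 44837871), had 0 and 0.201 CPM in control cells and 0.0406 and 0.0673 CPM in knockdown cells, which is at most 3 counts per library. With DS3201 it was 0.963 and 2.38 CPM, and under the combined treatment 2.20 and 6.07 CPM. All libraries with DS3201 lay above all without, and set 28 was the higher set in every group. The log2 fold change was 5.11 ± 0.92, with 3.53 and 4.02 within the sets (edgeR adjusted p = 0.0287, and 0.00111 with the block), and the ratio of counts was 43.3 with a counting interval of 18.2 to 135. It passed in 2 of the 8 fits that left out a library, with a log2 fold change from 4.53 without the control library of set 20 to 6.99 without that of set 28.

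Of its relatives, Pax8 was not called and Pax5 was not tested. Pax8, the thyroid and kidney member, was 21.1 and 10.1 CPM in control cells, 19.95 and 8.75 CPM in knockdown cells, 25.9 and 13.3 CPM with DS3201 and 21.2 and 9.84 CPM under the combined treatment. Set 20 was the higher set in each group, and the groups overlapped (log2 fold change 0.22 ± 0.44, edgeR adjusted p = 0.857). Pax5, the B-cell member, had 0 counts without and 14 counts with DS3201, spread over all 4 libraries.

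Pax6, the eye and forebrain regulator (chr2, 105668900 to 105697364), was 0.143 and 0.134 CPM in control cells and 0.0406 and 0.202 CPM in knockdown cells. It was 0.283 and 1.41 CPM with DS3201 and 1.13 and 3.07 CPM under the combined treatment, so the lowest treated library lay just above the highest untreated library. The log2 fold change was 3.33 ± 0.81 (edgeR adjusted p = 0.0704), and Pax6 passed with the block (3.18 ± 0.50, adjusted p = 0.00621). Its direction was fixed by the count filter. Pax4, its paired-domain relative of the endocrine pancreas, had 1 count without and 11 with DS3201.

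Pax3 was the 1 member that fell in any fit to all libraries. Pax3 (chr1, 78101267 to 78197134) was 42.2 and 49.3 CPM in control cells, 39.5 and 51.4 CPM in knockdown cells, 22.5 and 39.6 CPM with DS3201, and 25.2 and 35.5 CPM under the combined treatment. Within each set both libraries with DS3201 were below both without, while across sets the inhibitor library of set 28 (39.6 CPM) overlapped the knockdown library of set 20 (39.5 CPM). The log2 fold change was -0.57 ± 0.24 without the block (edgeR adjusted p = 0.275) and -0.60 ± 0.13 with it (0.0222). Without the inhibitor library of set 28 it was -0.75 with the block (adjusted p = 0.00383). Pax7, its relative in muscle stem cells, had 0 counts in the untreated libraries and 8 counts with DS3201, all in the combined group.

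Pax9, a gene of tooth, thymus and skeletal development, was 0.665 and 1.68 CPM in control cells, 1.95 and 1.62 CPM in knockdown cells, 2.49 and 1.501 CPM with DS3201 and 4.52 and 3.77 CPM under the combined treatment. Only the combined libraries lay above all others. Its log2 fold change was 1.00 ± 0.41 with DS3201 (edgeR adjusted p = 0.267) and 1.83 ± 0.58 in the combined group against control (0.217, and 0.0698 with the block). Slc25a21 on the opposite strand overlaps 189 bases of Pax9 exon. Pax1, its relative in the vertebral column, had 1 count without and 3 with DS3201.

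Of the 8 tested T-box genes, Eomes was the 1 called. Eomes, required in mesendoderm, trophoblast and cortical progenitors (chr9, 118478212 to 118486132), was 2.38 and 1.28 CPM in control cells and 5.65 and 2.96 CPM in knockdown cells. It was 10.5 CPM in both sets with DS3201, and 17.2 and 12.8 CPM under the combined treatment. The levels were successively higher in control, knockdown, inhibitor and combined libraries, without overlap between neighbouring groups. An opposite-strand transcript overlaps 118 bases of Eomes exon, and such overlaps also exist for Sox8 (329 bases), Pax8 (367) and Tbx18 (970). With DS3201 the log2 fold change was 2.15 ± 0.33, a 4.44-fold increase, with 1.84 and 2.50 within the sets (edgeR adjusted p = 0.0188, and 0.00124 with the block). Eomes passed in 4 of the 8 fits that left out a library (adjusted p from 0.0426 to 0.0917).

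The abundant T-box genes gave no call. Tbx20 (chr9, 24718138 to 24774303) was 188 and 99.9 CPM in control cells, 176 and 159 CPM in knockdown cells, 127 and 150 CPM with DS3201 and 139 and 153 CPM under the combined treatment, with a log2 fold change of -0.13 ± 0.22 (edgeR adjusted p = 0.829). Both the highest and the lowest library were controls. Tbx15 (chr3, 99240381 to 99354259) was 29.2 and 43.2 CPM in control cells, 30.6 and 41.1 CPM in knockdown cells, 26.8 and 40.3 CPM with DS3201 and 30.1 and 35.01 CPM under the combined treatment, and its sets differed more than its groups (-0.12 ± 0.22, edgeR adjusted p = 0.834). Tbx18 (chr9, 87702800 to 87731260) was 23.3 and 24.4 CPM in control cells, 25.4 and 20.2 CPM in knockdown cells, 18.7 and 20.5 CPM with DS3201, and 18.1 and 17.1 CPM under the combined treatment. The treated libraries were mostly lower, but the inhibitor library of set 28 overlapped the knockdown library of set 28 (-0.33 ± 0.15, edgeR adjusted p = 0.338, and 0.152 with the block).

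Tbx2, Tbx3, Tbx4 and Tbx5 pattern limb and heart and lie as neighbours, Tbx2 and Tbx4 44.5 kb apart on chromosome 11 and Tbx3 and Tbx5 147.9 kb apart on chromosome 5. Tbx5 (chr5, 119832668 to 119885219) was 5.65 and 5.30 CPM in control cells, 6.54 and 6.06 CPM in knockdown cells, 3.96 and 3.18 CPM with DS3201, and 4.02 and 3.77 CPM under the combined treatment. Every treated library was below every untreated library, but the test did not pass (-0.65 ± 0.23, edgeR adjusted p = 0.195, and 0.0581 with the block). Its neighbour Tbx3 ranged from 14.3 to 23.1 CPM with overlapping groups (0.12 ± 0.17, edgeR adjusted p = 0.792). Tbx2 ranged from 4.61 to 17.4 CPM (-0.21 ± 0.39, edgeR adjusted p = 0.842), with 0.67 in set 20 and -0.86 in set 28, while Tbx4 had 1 count without and 7 with DS3201. Tbx1, of the pharyngeal arches, was 0.0950 and 3.62 CPM in control cells, so its sets were far apart before treatment (0.29 ± 1.04, edgeR adjusted p = 0.925).

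Members with 0 counts without DS3201 were looked for in the libraries with it. Members picked for 0 counts can only go up, so nothing is read from that direction. The reverse, counts without DS3201 and 0 counts with it, held for 0 members and for 451 of the 24062 genes. The 4 libraries without the inhibitor each held counts for 24 to 26 of the 42 members, and the 4 with it for 31 to 37. Their total counts were 74371651 without and 60726333 with the inhibitor. The same detection count over all genes was not made, so nothing about the members is read from it. Of the 10 members with 0 counts in all untreated libraries, 9 had at least 1 count with DS3201 (90.0%, where 44.1% of the 6025 such genes in the table did), and 7 were counted in 3 or 4 of the treated libraries (70.0%, against 17.1%). These 7 were Sox2, Sox7, Sox17, Sox18, Sox21, Pax5 and Tbx22. Apart from Sox2 and Sox21 their levels were at most 0.396 CPM. Over the 19 untested members together there were 36 counts without and 121 with DS3201. Tbx21, a T-helper cell regulator, had the most of these, 2 counts without and 25 with. Sox15 went the other way, with 18 and 3 counts.

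Taken apart by shRNA, DS3201 gave no call in edgeR without the block, and calls in DESeq2 and in edgeR with the block. The direction of Sox2, Sox21, Pax2 and Pax6 was again fixed by the count filter. In control shRNA cells 0 tested members passed in either direction in edgeR without the block, beside 0.726% of all entries called higher and 0% lower. There 5 members were higher and 0 lower at an unadjusted p under 0.05, beside 1576 and 325 of all 15287 entries. DESeq2 called 3 higher, beside 4.78% of entries, and 0 lower, beside 0.438%. With the block 4 rose (Sox9, Sox12, Pax2, Eomes), beside 6.62%, and 0 fell, beside 0.706%. In knockdown cells 0 passed without the block, beside 0.602% called higher. There 7 members were higher and 0 lower at an unadjusted p under 0.05, beside 1280 and 217 of all entries. DESeq2 called 3 higher and 0 lower, beside 4.06% and 0.249%. With the block 7 rose (Sox2, Sox9, Sox12, Sox21, Pax2, Pax6, Eomes), beside 6.05%, and 0 fell, beside 0.824%. Without the inhibitor library of set 28, edgeR with the block also gave 4 and 7 higher members, but not the same ones. Pax2 did not pass in control shRNA cells (adjusted p = 0.0524) and Sox21 did not in knockdown cells (0.0511), while Sox4 rose in both (log2 fold change 0.99 and 0.81, edgeR adjusted p = 0.0215 and 0.0106). Pax3 then fell in both (-0.90 and -0.60, edgeR adjusted p = 0.0271 and 0.0203). The fit without the inhibitor library of set 28 was chosen after seeing the data and left 1 library in that group. For that fit the share of all entries called was not computed. Its counts are not read as a result about the members. In the fits to all libraries, the 3 members called with the block only in the knockdown cells were not shown to respond differently there. For Sox2 and Sox21 the fit gives no standard error of the interaction, and for Pax6 the interaction was 1.64 ± 1.61 on the log2 scale (edgeR adjusted p = 1). The interaction passed for 0 members with edgeR, with the block and with DESeq2, beside 0% of all entries. At an unadjusted p under 0.05 in edgeR there were 0 members, beside 9 entries higher and 14 lower.

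The Ring1a knockdown without inhibitor changed 0 members in edgeR, with the block and in DESeq2, beside 0% of all entries in edgeR and 0.00654% called lower in DESeq2. At an unadjusted p under 0.05 in edgeR, 103 of all 15287 entries were higher and 52 lower. Among the tested members 2 were higher and 0 lower. These were Sox9 (log2 fold change 1.57 ± 0.63) and Eomes (1.23 ± 0.46), each with an edgeR adjusted p of 1. Both were higher in the knockdown library of each set: 1.70 and 1.02 for Sox9, and 1.21 and 1.14 for Eomes. Sox12 followed with 1.61 ± 0.73 (2.50 and 1.04 within the sets). The median over tested members was 0, against 0.01 over all entries. That 0 is the value of Sox2 and Sox21, which had 0 counts in the 4 libraries compared, and nothing is read from it. Of the 23 tested members 8 were higher in both sets and 3 lower, a count that was not made over all entries.

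With DS3201 present, the knockdown again changed 0 members by edgeR, with the block and with DESeq2. This stood beside 0% of entries in edgeR and 0.0327% called lower in DESeq2. At an unadjusted p under 0.05 in edgeR there were 0 members, beside 124 entries higher and 148 lower. Of the 23 tested members 16 were higher in both sets and 4 lower. The same count over all entries was not made, so nothing about the members is read from it. The median log2 fold change was 0.50 over the tested members, against -0.02 over all entries. That median includes Sox21, which entered the test only through the combined libraries, and Sox2 and Pax6, which needed a combined library to enter. Nothing is read from the median or from the direction of these genes. The larger values were Pax6 (1.33 ± 0.99), Pax2 (1.31 ± 1.00), Sox21 (1.18 ± 0.80), Pax9 (1.04 ± 0.57) and Sox2 (0.98 ± 1.51). None of these passed (edgeR adjusted p = 1 for each). Sox11 gave -0.20 and -0.51 within the sets.

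Against the control, the combined group showed the highest levels of the members called with DS3201. Here too, nothing is read from the direction of Sox2, Sox21, Pax2 and Pax6. Sox12 (log2 fold change 4.91 ± 0.80, a 30.1-fold increase, edgeR adjusted p = 0.0476) and Eomes (3.02 ± 0.48, 8.13-fold, 0.0459) rose and 0 members fell, beside 1.43% of entries called higher and 0.0327% lower. At an unadjusted p under 0.05, 9 were higher and 0 lower, beside 1596 and 426 of all 15287 entries. DESeq2 called 4 higher and 0 lower, beside 6.01% and 0.824%. With the block 8 rose, beside 9.21%, and 0 fell, beside 2.06%. The 6 added were Sox2 (at least 16.7-fold, adjusted p = 0.0376), Sox4 (1.17 ± 0.29, 0.0451), Sox9 (3.22 ± 0.39, 0.00438), Sox21 (at least 11.8-fold, 0.0307), Pax2 (5.44 ± 0.68, 0.00478) and Pax6 (3.68 ± 0.66, 0.0164). Without the block the count was 0 in 6 of the 8 fits that left out a library, and 1 (Eomes) without either knockdown library. In these fits the log2 fold change of Sox12 ran from 4.14 to 6.44, without the control library of set 20 and of set 28, and that of Eomes from 2.65 to 3.55. The count was 0 in a fit to the compared groups alone. This comparison shares its control libraries with the comparison of DS3201 in control shRNA cells, where Sox12 gave 4.21 ± 0.78, Eomes 2.51 ± 0.47 and Sox9 2.46 ± 0.65.

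The sets differed in several members by as much as the treatments. Of the 23 tested members 6 were higher in set 20 in all 4 groups (Sox4, Sox6, Sox9, Sox13, Pax8, Tbx5) and 5 higher in set 28 (Sox5, Sox11, Pax2, Pax3, Tbx15). In the control 8 members differed by over 1 log2 unit between sets, with Tbx1 (-4.14, set 20 minus set 28) and Sox13 (3.95) at the ends. In the combined group 5 did (Sox2, Sox13, Pax2, Pax6, Pax8), and Tbx1 was at 0.13. The labels assign each replicate number a batch, but do not say which prefix belongs to which number.

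**Figure D4:**
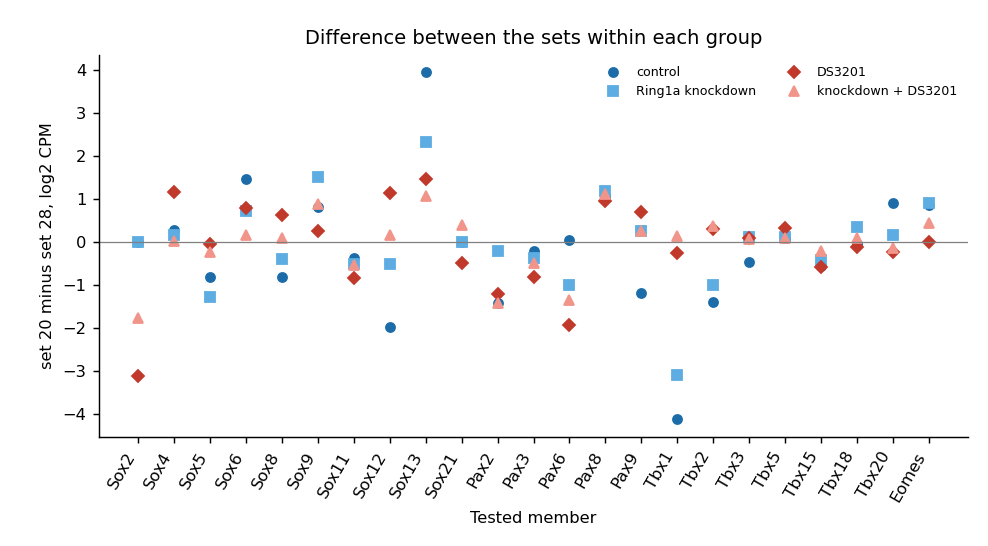
Difference of set 20 from set 28 in log2 CPM for each tested member, 1 symbol per group. Tbx1 and Sox13 lie farthest from 0 in the control (-4.14 and 3.95), and Pax8 stays near 1 in all 4 groups.

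Genes known as partners or targets of the members were read from lists, again for DS3201 averaged over both shRNAs and beside 5.24% of all entries called higher. Every gene named below as risen without the block was under 1 CPM in the control, where 28.2% of entries passed. Those at or near 0 CPM untreated, such as Six2, Prom1, Tie1, Wt1 and Cxcr4, entered the test only through the libraries with DS3201. Their direction was fixed by the count filter and nothing is read from it. The number tested in each list depends on the same filter. Among the EYA, DACH and sine oculis homeobox partners of Pax proteins 2 of 10 tested genes rose and 0 fell. Six2, which maintains kidney progenitors, went from 0.0671 to 0.143 CPM in the untreated libraries to 4.77 to 11.1 CPM (5.83 ± 0.39, edgeR adjusted p = 0.00153), and Dach2 rose from at most 0.134 CPM to 0.256 to 1.19 CPM (3.27 ± 0.66, 0.04). Of genes linked to SoxB1 factors in neural progenitors 2 of 7 rose: Fabp7, from 0.203 to 0.875 CPM to 5.81 to 20.8 CPM (4.72 ± 0.67, 0.0154), and Prom1, from at most 0.0812 CPM to 1.30 to 2.30 CPM (0.0153). Nes, a broader progenitor gene of the same list, was at 238 to 341 CPM with overlapping groups.

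The endothelial list of the SoxF factors had 4 of 8 tested genes higher and 0 lower. Flt4, a VEGF receptor of lymphatic endothelium, went from 0 to 0.731 CPM to 21.8 to 50.02 CPM (6.74 ± 0.52, edgeR adjusted p = 0.00241), and Tie1, Tek and Notch4 also rose (adjusted p = 0.0307, 0.039 and 0.0407). Of the same list, Cldn5 was at 0, Prox1 at most 0.177 CPM and Cdh5 at most 1.00 CPM, while Kdr was at 9.17 to 21.1 CPM, Flt1 at 23.6 to 123 CPM and Vcam1 at 159 to 329 CPM. In each of 4 further lists 1 gene rose and 0 fell: Ret of 6 Sox10 targets, Itm2a of 4 Pax3 and Pax7 targets, Wt1 of 5 Pax2, Pax5 and Pax8 targets, and Cxcr4 of 5 mesendoderm genes. Wt1, a kidney and gonad regulator, had 0 counts untreated and 0.530 to 2.32 CPM with DS3201 (adjusted p = 0.0349).

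The remaining lists gave no call without the block. Of the 8 cartilage genes tested 0 passed, and 1 with the block: Col2a1, the collagen directly under Sox9, at 0.537 to 1.42 CPM untreated and 1.34 to 3.68 CPM treated (1.21 ± 0.40, edgeR adjusted p = 0.166, and 0.0374 with the block). Col2a1 was under 1 CPM in the control, where 53.5% of entries rose with the block. Acan, the cartilage proteoglycan, stayed at or below 0.703 CPM. Of 5 limb and heart genes 0 passed. Of the 4 cell cycle inhibitors that Tbx2 and Tbx3 are known to repress, 0 passed without the block. With it Cdkn1a rose (1.26 ± 0.18, edgeR adjusted p = 0.00392) and Cdkn2b fell (-0.57 ± 0.15, adjusted p = 0.0407). Both were at 10 CPM or more in the control, where 3.48% of entries rose and 5.88% fell with the block. Among T-box and Sox relatives named otherwise, Mga (0.15) was the 1 tested gene and did not pass, T (Brachyury) was at 0 to 1.00 CPM, and Sry had 0 counts in all libraries.

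Markers of cell types were counted in the same way, and their part in these results was not tested. All markers called higher without the block (Dcn, Stmn2, Myh3, Tie1, Tek) were under 1 CPM in the control, where 28.2% of entries passed. Stmn2, Myh3 and Tie1, at or near 0 CPM untreated, entered the test only through the libraries with DS3201. Nothing is read from their direction. The summed level of the 10 fibroblast markers was 18006 to 20540 CPM without and 12024 to 14475 CPM with DS3201, with 1 of 8 tested markers higher (Dcn) and 1 lower (Pdgfrb). Neuronal markers summed to 15.3 to 69.8 CPM without and 61.2 to 116 CPM with DS3201 (1 of 5 higher, Stmn2), and skeletal muscle markers to 1.07 to 10.0 and 6.84 to 18.6 CPM (1 of 3 higher, Myh3), with Myod1 and Myog at or below 0.0639 CPM. Endothelial markers summed to 11.1 to 22.6 and 15.5 to 20.8 CPM (2 of 5 higher, Tie1 and Tek). Glial and neural crest markers stayed at 0.336 to 2.38 CPM in sum, and the test of that list is not reported here. Pluripotency markers stayed at 0.772 to 1.98 CPM, with 0 called. Epithelial markers summed to 17.7 to 67.9 and 23.5 to 140 CPM and blood markers to 4.78 to 11.2 and 3.77 to 8.21 CPM, also with 0 called. With the block, 12.9% of all entries rose and 4.16% fell. In that fit 2 of 8 fibroblast markers rose (Dcn and Pdgfra) and 4 fell (Pdgfrb and the collagens Col1a1, Col1a2 and Col3a1). In the same fit 4 of 5 neuronal markers rose (Stmn2, Elavl4, Tubb3, Syp), as did 3 of 3 skeletal muscle markers (Myh3, Actc1, Des), 1 of 2 epithelial markers (Krt14) and 2 of 5 endothelial markers (Tie1 and Tek). Of the markers that rose with the block, Dcn, Stmn2, Elavl4, Syp, Myh3, Actc1, Tie1 and Tek were under 1 CPM in the control. At that level 53.5% of all entries rose with the block. The blood and pluripotency markers again gave 0 calls.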

How the data were processed

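The deposited table holds counts, whole numbers per gene symbol and repeat subfamily, with no normalization by the authors as judged from the values. Trim Galore and TopHat2 with mm10 are named in the submitters' processing notes, without versions; the sources used here name no counting tool or strand rule. Another 8 columns of samples were not used here. Entries were filtered with filterByExpr by group, leaving 15287 of 25215 (14393 genes, 894 repeat subfamilies), scaled by TMM and tested in R 4.3.3 with edgeR 4.0.16 (quasi-likelihood F test, robust, 4 group terms, all 8 libraries, two-sided), with Benjamini-Hochberg adjustment over all 15287 entries and a threshold of 0.05. DESeq2 1.42.0 was an alternative, as were other size factors, no filter, a fit to the compared groups, leaving out each library, and the set as a replicate block. CPM values carry no prior; within-set log2 ratios use a prior count of 2.

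The set prefix was taken as pairing the libraries because differences between the sets correlated between groups across genes (r from 0.559 to 0.897). Standard errors come from the fitted model and are left out where a compared group had 0 counts; there a fold is a lower bound against 3 counts over that group. Counting intervals are 95% exact binomial limits. Without molecular identifiers reads can repeat a molecule, so floors and intervals cover counting error alone. In simulated data for the DS3201 average, the test over 15287 entries recovered 12% of 2-fold, 64% of 4-fold, 82% of 8-fold and 96% of 16-fold changes. Each fold was given to 50 entries, and 13 entries simulated without a change were also called. Gene positions and exon lengths are from GENCODE on GRCm38 (mm10), and all 42 members matched. Members named in full were those passing any comparison with or without the block, the 3 of highest mean CPM per family and the 2 of smallest p per family for the DS3201 average; other members are given by range or counts. The members, the lists and the naming rule were chosen with earlier results of these data known.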

Additional observations from a re-analysis of the deposited data

How the results depend on the processing

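Size factors by DESeq2's method in edgeR left the counts of called members as reported. Omitting the low-count filter added Sox9 to the average (1.99, adjusted p = 0.04), for 5 higher members, and moved no other count. With DESeq2 the number of higher members was 7 for DS3201 averaged over both shRNAs, 3 in control shRNA cells, 3 in knockdown cells and 4 for the combined group against control. With the replicate block these numbers were 7, 4, 7 and 8, and 1 member was lower in the average. An alternative chosen after seeing the data, the replicate block without the inhibitor library of set 28, gave 7, 4, 7 and 9 higher members, with Sox4 in place of Sox2, Pax2 and Sox21 in the first 3 and Pax9 added in the fourth. It also gave 3 lower in the average (Pax3, Tbx5, Tbx18) and 1 lower (Pax3) in each of the other 3 comparisons. For this alternative the share of all entries called was not computed. Its counts are not read as a result about the members. Fitted to the compared groups alone, the combined group had 0. Leaving out each library in turn gave 0 to 4 higher members for the average and 0 to 1 for the combined group; a group left with 1 library is assumed to vary like the others. The block changed no call in the comparisons of the knockdown or in the interaction. Of 1527 single-member values under the alternatives 1424 kept their sign, the other 103 passed in neither fit, and 0 calls reversed.

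With 2 libraries a group, changes of 2-fold would mostly be missed in the fit without the block, and members near 3 counts per library are limited by depth. Genes overlapping on opposite strands cannot be told apart where the counting ignored strand.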
